A study of Mus musculus with 18 samples.

Results

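Gene expression in oocytes of primary follicles was compared between ovaries kept in culture (*in vitro*) and ovaries taken directly from the mouse (*in vivo*). The 6 libraries labelled as oocytes from primary follicles were taken by their labels, 3 *in vitro* and 3 *in vivo*, of the 18 libraries of the series. The mice were C57Bl/6j x CBA/J. Ovaries of the *in vivo* group came from 14-day-old mice and were not cultured. Those of the *in vitro* group came from 7-day-old mice and were kept for 7 days in α-MEM. The medium held fetal bovine serum, insulin, transferrin, selenium, antibiotics and recombinant follicle stimulating hormone. Per the study's methods, the oocytes were cut out of fixed, paraffin-embedded sections by laser capture microdissection (LCM), which frees chosen cells from a section with a laser, and were picked by shape as oocytes within one layer of cuboidal granulosa cells. RNA of several oocytes was pooled, amplified, and enriched for coding sequences with capture probes. No label ties a library to an animal, so p-values measure only the spread between these libraries, which may be technical, and age at dissection and culture cannot be told apart.

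The primary follicle is the first stage of follicle growth, in which the oocyte enlarges, begins to store RNA and protein for the embryo, and lays down the zona pellucida. *Gdf9* and *Bmp15*, members of the TGF-β family, are secreted by the oocyte and act on the granulosa cells, which in turn support it through kit ligand and gap junctions. PI3K signalling, which acts on *Foxo3*, is known for holding or releasing oocytes from dormancy before this stage.

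The libraries differed in how many genes they held. Total counts were between 22572216 and 23930436 *in vitro* and between 18437770 and 25495043 *in vivo*. More than 3 counts were found for 11094, 8880 and 11710 genes in *in vitro* libraries 1 to 3, and for 4842, 10283 and 7163 genes in *in vivo* libraries 1 to 3. The means were 10561 ± 1488 (SD, n = 3) and 7429 ± 2730 (SD, n = 3) genes, and the groups overlapped (exact permutation test, two-sided, p = 0.2, where 3 against 3 allows no p under 0.1). A count of 3 or fewer is called the floor here, and covers counting error only. Of the genes that reached 100 counts in at least 1 library of a group, 29.04% were at the floor in another *in vitro* library and 60.1% in another *in vivo* library. The rank correlation of libraries within the *in vivo* group was 0.488 to 0.550, lower than within the *in vitro* group at 0.648 to 0.776. *In vivo* library 1 stood apart, with the fewest genes and the lowest scaling factor by TMM (0.672), so its values are scaled up the most. *In vivo* library 2 held the most collagen, as given below. The study reports fewer primary follicle oocytes cut *in vivo* than *in vitro*, without the number in each library. Fewer oocytes and less RNA per oocyte cannot be told apart in such libraries, and the part of the oocyte number was not tested. All levels below are counts scaled to the library size after TMM (normalised CPM), which are not per gene length, and are given in the order of libraries 1 to 3.

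**Figure D1:**
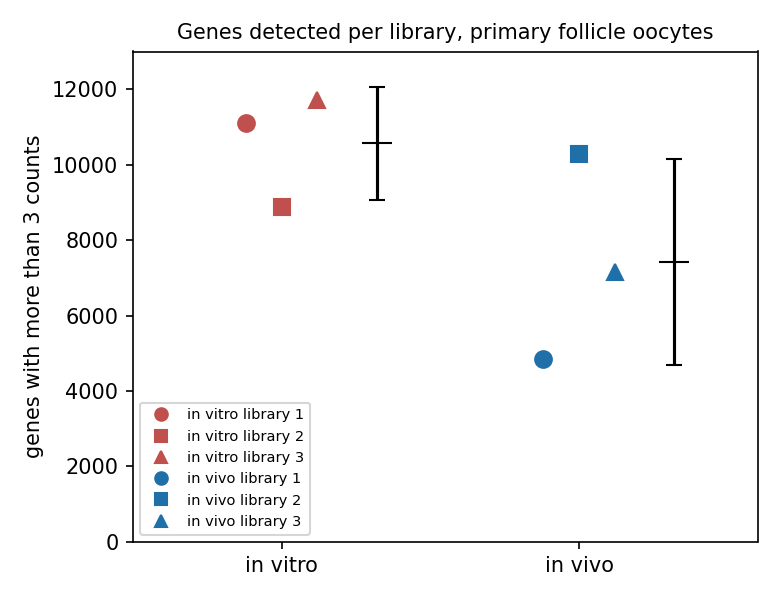
Number of genes with more than 3 counts (vertical axis) in each *in vitro* and *in vivo* library of primary follicle oocytes, with the mean and SD of each group at the right of its points. *In vivo* library 1, with 4842 genes, lies lowest, and *in vivo* library 2, with 10283, lies among the *in vitro* libraries.

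Oocyte markers were found in both groups, and for most of them the libraries overlapped. All 20 markers were tested, and 15 of them were over the floor in all 6 libraries. *Gdf9* was at 67.7, 45.6 and 68.4 normalised CPM *in vitro* and at 92.0, 44.3 and 59.1 *in vivo*. The difference was -0.10 ± 2.73 on the log2 scale (SE), with a 95% confidence interval from -5.46 to 5.25. The fit takes its spread from the 12 LCM libraries. In the primordial ones *Gdf9* had 32, 7061 and 5 counts *in vitro* and 135, 101 and 15 *in vivo*. By this fit a difference of several fold was not detectable, although the 6 primary libraries lay between 44.3 and 92.0. The genes of the zona pellucida, the coat of the oocyte, also overlapped between the groups. *Zp1* was at 26.9, 112 and 49.9 *in vitro* and at 79.4, 39.1 and 115 *in vivo*. *Zp2* was at 13.6, 11.3 and 10.7 *in vitro* and at 14.1, 7.15 and 22.3 *in vivo*, and *Zp3* at 17.6, 25.8 and 24.1 against 47.7, 18.7 and 31.0. Of these, *Zp1* varied most within the *in vitro* group.

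Maternal factors that the oocyte stores for the embryo overlapped between the groups. *Nlrp5*, *Padi6*, *Tle6* and *Ooep* encode parts of the subcortical maternal complex, which early cleavage requires. *Nlrp5* was at 20.4, 23.3 and 14.9 *in vitro* and at 16.6, 9.27 and 56.0 *in vivo*, and *Tle6* at 5.98, 6.00 and 5.33 against 5.96, 6.10 and 13.1. *Padi6* was at 20.1, 30.9 and 16.9 *in vitro* and at 53.2, 23.2 and 73.4 *in vivo*, and *Ooep* was between 0.682 and 3.37 in all 6. *Zar1*, needed for the oocyte-to-embryo transition, was at 31.2, 28.4 and 25.6 *in vitro* and spread more widely *in vivo*, at 4.96, 7.07 and 68.0. *Dppa3* was between 0.388 and 2.01 in all 6. *Bmp15*, the partner of *Gdf9*, was at 2.70, 1.47 and 3.01 *in vitro* and at 1.40, 0 and 2.07 *in vivo*, and *Oosp1* was at 0.475 to 1.12 *in vitro* and over the floor in *in vivo* library 3 alone (1.03).

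Transcription factors of the oocyte overlapped between the groups. *Nobox* was at 1.69, 1.34 and 1.95 *in vitro* and at 1.58, 0.923 and 5.87 *in vivo*. *Figla* did not exceed 0.543 in any library, and *Sohlh1* was at 0 in *in vitro* library 3 and in *in vivo* library 1. *Lhx8* was at 47.9, 32.4 and 26.7 *in vitro* and at 38.3 and 51.3 in *in vivo* libraries 2 and 3, and at the floor in *in vivo* library 1. The germ cell RNA-binding protein gene *Dazl* and the receptor gene *Kit* varied within each group. *Dazl* was at 267, 0.173 and 96.3 *in vitro* and at 0.292, 210 and 4.46 *in vivo*, and *Kit* at 232, 3.80 and 36.9 against 3.68, 54.6 and 155.

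*Ybx2*, which encodes a Y-box protein that stores and stabilises maternal mRNA, was the oocyte marker whose libraries did not overlap. It was at 324, 479 and 323 normalised CPM *in vitro* and at 11392, 1031 and 2845 *in vivo*, so every *in vitro* library was below every *in vivo* library. The difference was -3.76 ± 1.29 on the log2 scale (13.6-fold lower) and did not pass the adjustment over all genes (edgeR quasi-likelihood test, adjusted p = 0.44). Without *in vivo* library 1 it was -2.37. *Ddx4*, the germ cell helicase, was at 98.9, 160 and 33.3 *in vitro* and at 554, 119 and 848 *in vivo*, where *in vivo* library 2 lay within the *in vitro* range. The summed level of the 20 markers was 742 to 1181 *in vitro* and 1610 to 12270 *in vivo*, of which *Ybx2* made up the larger share *in vivo*. The median difference of the markers was -0.33 on the log2 scale, beside 0.44 over all 15317 genes tested. Of the 20 markers, 1 was below in every *in vitro* library (5%) and 0 above, beside 1.25% and 8.74% of all genes. Without *in vivo* library 1, 3 were below (15%) and 0 above, beside 5.48% and 11.2%. Without *in vivo* library 2, 5 were below (25%) and 0 above, beside 4.16% and 22.7%.

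**Figure D2:**
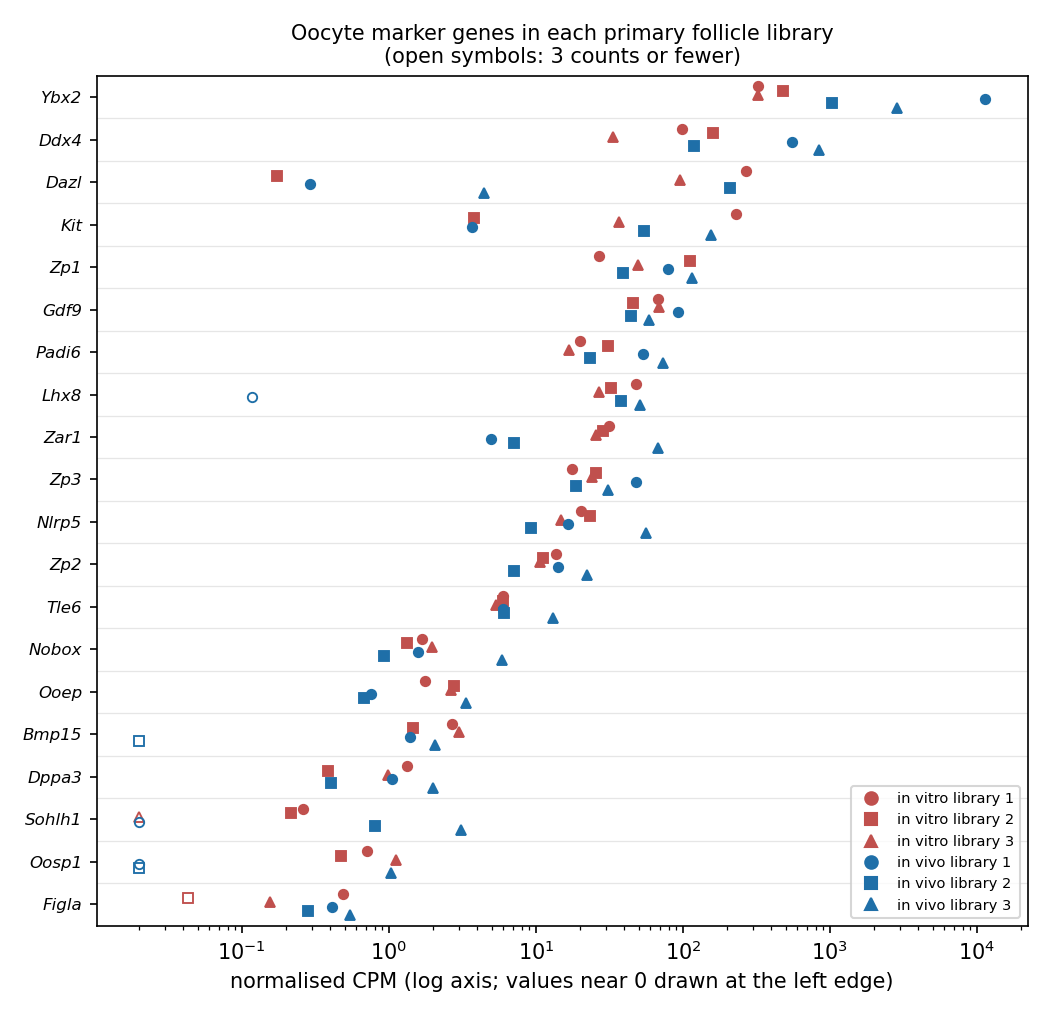
Normalised CPM (horizontal log axis) of the 20 oocyte markers in each library, with *in vitro* libraries in red and *in vivo* libraries in blue. *Gdf9*, *Zp1*, *Zp2*, *Zp3* and *Tle6* show overlapping groups, and *Ybx2* shows every *in vitro* library below every *in vivo* library.

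The spread between libraries depended on the genes. Among the 15 oocyte markers over the floor in all 6 libraries, the highest library was 1.57 times the lowest *in vitro* and 5.01 times the lowest *in vivo*, as medians over the markers. For the 66 ribosomal protein genes over the floor in all 6 these ratios were 1.75 and 4.65, and for all 3044 such genes they were 3.79 and 16.6. These ratios describe the libraries and were not tested.

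Genes of other ovarian cell types were also found, although oocytes were the cells cut. Of 14 granulosa cell markers, 12 were tested and 4 were over the floor in all 6 libraries, and their summed level was 1519, 1832 and 2639 *in vitro* and 910, 1192 and 562 *in vivo*, without overlap. *Foxl2*, the granulosa transcription factor, was at 116, 348 and 112 *in vitro* and at 12.5, 47.5 and 135 *in vivo*. *Wt1* was at 304, 988 and 408 *in vitro* and at 7.65, 688 and 239 *in vivo*, and *Gja1*, the gap junction connexin of granulosa cells, at 587, 195 and 829 against 260, 38.5 and 1.03. No granulosa marker passed at an unadjusted p under 0.05 in either direction, and no marker separated the groups. The defining markers *Fshr* and *Cyp19a1* fell under the filter on low counts.

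Markers of theca and stroma were led by *in vivo* library 2. Their summed level over 11 tested markers was 1977, 5184 and 1966 *in vitro* and 2140, 34062 and 961 *in vivo*. *Col1a1* was at 842, 2970 and 732 *in vitro* and at 1072, 18725 and 665 *in vivo*, and its difference turned from -2.17 to 0.80 on the log2 scale without *in vivo* library 2. *Col1a2* was at 837, 1727 and 872 *in vitro* and at 919, 3888 and 258 *in vivo*, and *Acta2*, smooth muscle actin, was at 9668 in *in vivo* library 2 and at 0.117 and 0.163 in the other two. *Star* did not exceed 0.248 in any library.

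Surface epithelium markers were highest in *in vitro* library 2, with a summed level of 56.5, 2955 and 108 *in vitro* and of 1.11, 229 and 0 *in vivo*. *Krt8* was at 52.5, 799 and 106 *in vitro* and at 0, 26.6 and 0 *in vivo*, and *Krt18* at 0.228, 7.81 and 2.48 *in vitro* and at 0 in all *in vivo* libraries. *Krt19* was at 1806 in *in vitro* library 2 and at 135 in *in vivo* library 2, with the other 4 libraries at or near 0. *Krt7* and *Upk1b* lay the other way, at 17.8 and 0.647 in *in vitro* library 2 and at 41.5 and 21.5 in *in vivo* library 2, and *Msln* was at 0 *in vitro* and at most 0.175 *in vivo*.

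Red blood cell genes lay the other way. All 5 markers were lower *in vitro* at an unadjusted p under 0.05, against 2.72% of all genes tested, and none passed the adjustment. The summed level was 31.7, 0 and 0.0930 *in vitro* and 2474, 776 and 247 *in vivo*. *Hbb-bs*, an adult β-globin, was at 0 in the 3 *in vitro* libraries and at 0, 265 and 247 *in vivo*, and *Hba-a1*, an α-globin, at 31.7, 0 and 0.0620 against 2473, 283 and 0. Each *in vivo* library held at least 1 globin gene, but not the same ones. Endothelial and immune markers summed to between 0 and 81.5 in all 6 libraries. *Cdh5*, of endothelium, was at 0.293, 0.0432 and 0.186 *in vitro* and at 0, 1.28 and 81.5 *in vivo*. The endothelial sum was 41.2 in *in vitro* library 2. *Csf1r*, an immune marker, was at 19.8 in *in vivo* library 2 and at 0 elsewhere, whereas *Lyz2* was highest in *in vitro* library 3, at 2.57. *Tek*, *Pecam1* and *Ptprc* were at or near 0. The part of these other cells in the differences below was not tested.

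**Figure D3:**
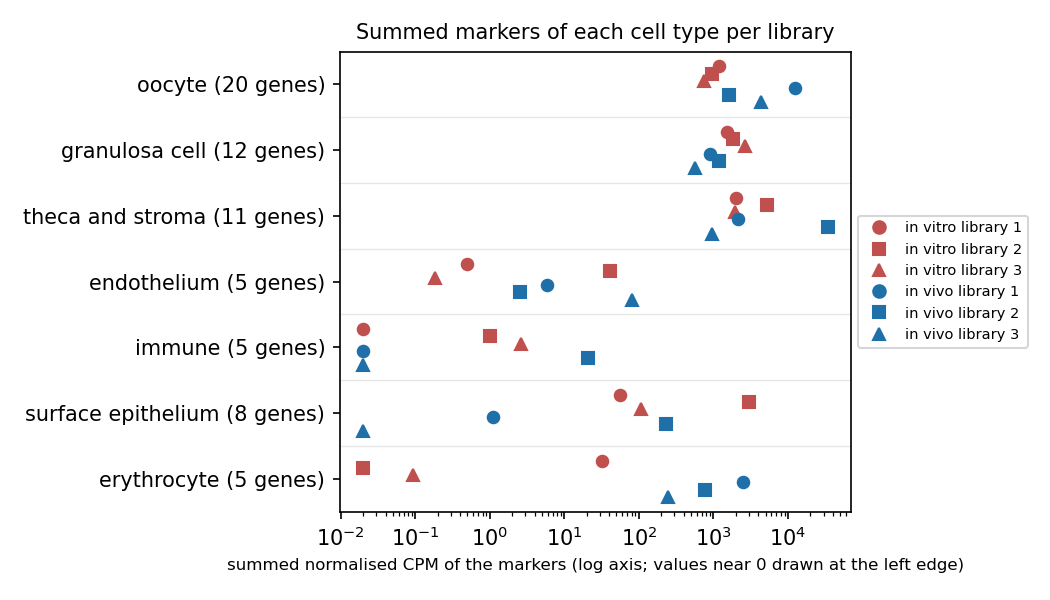
Summed normalised CPM (horizontal log axis) of the markers of each cell type in the 6 libraries, *in vitro* in red and *in vivo* in blue. Granulosa markers lie between 562 and 2639 in all 6 libraries, stroma reaches 34062 in *in vivo* library 2, surface epithelium 2955 in *in vitro* library 2, and red blood cell genes are highest in the *in vivo* libraries.

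Across the genome, no gene passed the edgeR quasi-likelihood test at an adjusted p under 0.05 with a 2-fold difference (0 of 15317 genes, or 0%). The smallest adjusted p was 0.0693. At an unadjusted p under 0.05, 1063 genes (6.94%) were higher and 416 genes (2.72%) were lower *in vitro*. With its defaults, DESeq2 called 248 of 8531 genes (2.91%), 218 of them higher *in vitro* and 30 lower. By a count that uses no model, all *in vitro* libraries were above all *in vivo* libraries for 1339 genes (8.74%) and below for 191 genes (1.25%). Without *in vivo* library 1 these counts were 1716 (11.2%) and 839 (5.48%), and the genes at an unadjusted p under 0.05 were 390 higher and 347 lower. Without *in vivo* library 3 the latter were 359 and 404, so the surplus of higher genes at that p depended on these libraries. By the count that uses no model, 2066 genes (13.5%) were above and 572 (3.73%) below without *in vivo* library 3, so that surplus stayed. The median difference of all genes was 0.44 on the log2 scale, or 0.23 with genes at the floor in one group set to the floor, and 2.34 without *in vivo* library 2.

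Genes that led the higher side were at or near the floor in the *in vivo* libraries. *Max*, the binding partner of the MYC proteins (chromosome 12, 76937269 to 76962201, mm10), was at 178, 1230 and 376 normalised CPM *in vitro* and at 0.0584, 0.321 and 0.109 *in vivo*. The difference was 11.77 ± 2.68 on the log2 scale, with an adjusted p of 0.0693 by edgeR. It was 10.67 to 12.71 when any 1 library was left out. *H2afj*, a variant of histone H2A, was at 133, 446 and 49.5 *in vitro* and at 0, 0.120 and 0.0543 *in vivo*. It was at least 1370-fold higher, with an adjusted p of 0.121. Both passed in DESeq2, with adjusted p-values of 4.2e-05 and 1.9e-05.

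The other leading higher genes had adjusted p-values of 0.44 in edgeR. *Ppp2r2b*, a regulatory subunit of protein phosphatase 2A, was at 89.3, 176 and 14.4 *in vitro* and at 0 in all *in vivo* libraries, at least 609-fold higher. *Pomgnt1*, an enzyme that extends O-mannose glycans, was at 236, 113 and 116 *in vitro* and at 0 *in vivo*, at least 1014-fold higher. *Mpp5*, a scaffold of cell polarity, was at 90.0, 89.2 and 144 *in vitro*, with 0, 1 and 0 counts in the *in vivo* libraries. *Hdac3*, a histone deacetylase of corepressor complexes, was at 178, 98.4 and 50.2 *in vitro* and at 0, 0.201 and 0 *in vivo*. Among these 10 genes, *Zscan12*, *Hist1h2bp* and *Tspan7* varied most *in vitro*: *Zscan12* was at 135, 0.345 and 51.0, *Hist1h2bp* at 108, 720 and 0.341, and *Tspan7* at 40.1, 0.949 and 148. *Hist1h2ag* was at 78.8, 399 and 123 *in vitro* and at 0, 1.32 and 0 *in vivo*. *Hist1h2ag* and *Hist1h2bp* belong to a family of near-identical copies, *Max*, *Tspan7* and *Ppp2r2b* overlap another gene on the same strand, and *H2afj*, *Pomgnt1*, *Mpp5* and *Hist1h2ag* one on the opposite strand, so their counts are uncertain.

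On the lower side, several of the leading genes were well above the floor in both groups, which made the size of the difference measurable. *Ryr3*, a calcium release channel of the endoplasmic reticulum (chromosome 2, 112631355 to 113217096), was at 11.9, 27.3 and 30.2 *in vitro* and at 4569, 246 and 298 *in vivo*, a difference of -6.20 ± 1.93 on the log2 scale (adjusted p = 0.44). *Ilk*, the integrin-linked kinase (chromosome 7, 105736592 to 105742925), was at 53.6, 37.9 and 63.1 *in vitro* and at 1603, 929 and 845 *in vivo*, a difference of -4.45 ± 1.89. The gap between the groups of *Ilk* was wider than the range within either. *Ttn*, the giant muscle protein titin, was at 831, 791 and 308 *in vitro* and at 11536, 1644 and 2753 *in vivo*, a difference of -3.05 ± 1.11. Without *in vivo* library 1 the difference of *Ryr3* was -3.55 and that of *Ttn* -1.77, whereas that of *Ilk* was -4.11.

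In the other leading lower genes 1 *in vivo* library was well above the other two. *Calb1*, the calcium buffer calbindin, was at 0 in all *in vitro* libraries and at 907, 24.5 and 0.0543 *in vivo*, where library 3 held 1 count. *Camk4*, a calcium/calmodulin-dependent kinase, was at or under the floor *in vitro* and at 731, 2.49 and 0.217 *in vivo*. *Cacnb2* and *Cacna2d2* encode auxiliary subunits of voltage-gated calcium channels. *Cacnb2* was at 0.0325, 1.12 and 2.20 *in vitro* and at 1052, 210 and 19.8 *in vivo*, and *Cacna2d2* at 0.0976, 0 and 0 against 313, 0.883 and 0.109. *Gas1*, a growth arrest gene, was at 0, 0 and 0.0310 *in vitro* and at 0.234, 66.4 and 13.0 *in vivo*, and *C1ra*, a complement protease, at 0 against 0.0584, 8.39 and 0.815. The adjusted p was 0.44 for each. *Cacnb2* overlaps several other genes, and *Ryr3*, *Ilk*, *Ttn*, *Camk4*, *Cacna2d2* and *Gas1* overlap a gene on the opposite strand, where the counting is not stated to use strand.

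**Figure D4:**
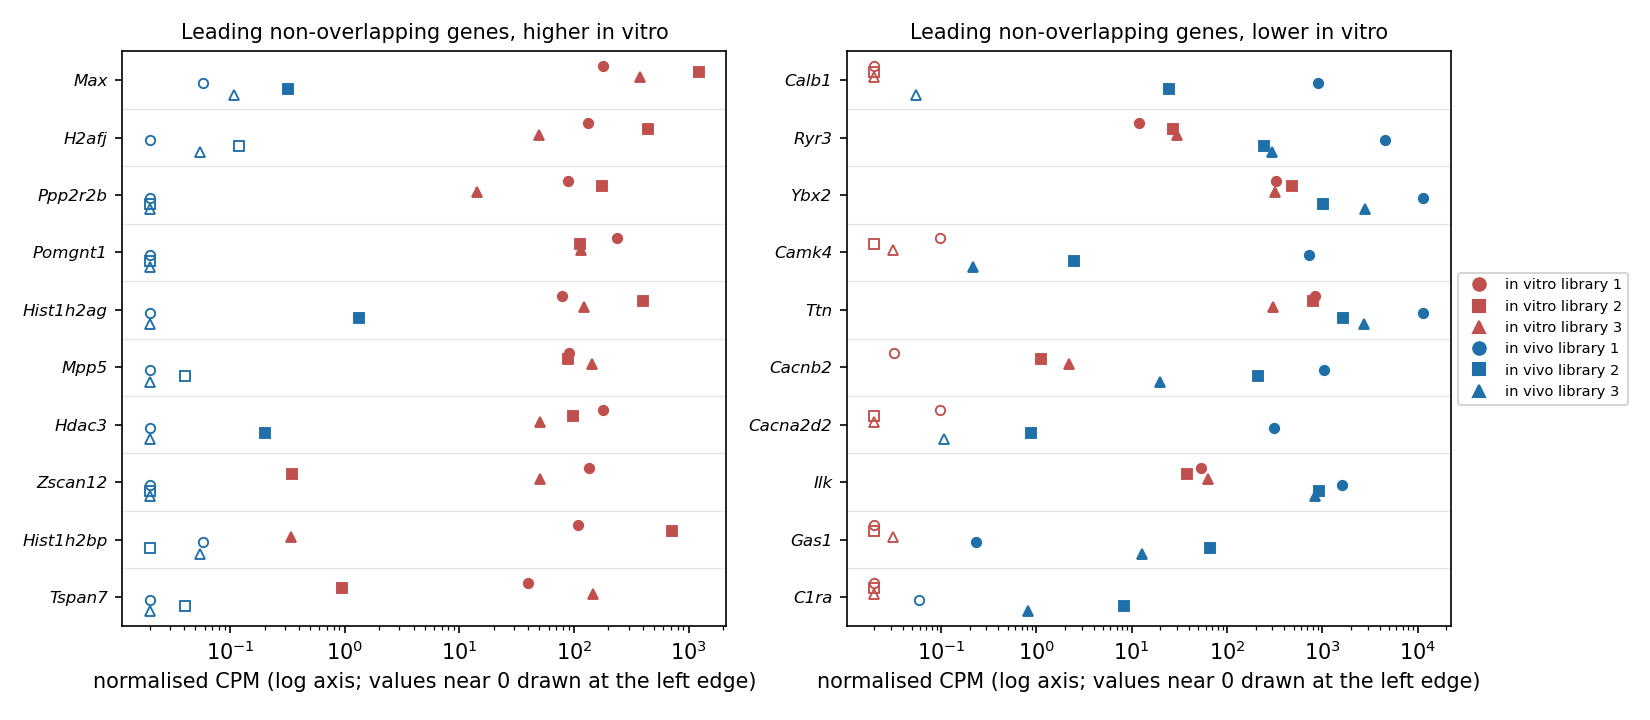
Normalised CPM (horizontal log axis) in each library of the 10 leading genes higher (left) and lower (right) *in vitro*, with open symbols for 3 counts or fewer. On the left the *in vivo* libraries are at or near the floor, whereas *Ryr3*, *Ybx2*, *Ttn* and *Ilk* on the right are measured in all 6 libraries.

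Genes with the highest lowest level over the 6 libraries, the best measured ones, differed by -1.02 to 0.53 on the log2 scale. They were picked for being high in every library, which favours small differences. *Actb* was at 12491, 19369 and 13527 *in vitro* and at 22439, 31610 and 15646 *in vivo*, a difference of -0.62 ± 0.69 on the log2 scale. *Eif4g2*, a translation initiation factor used when cap-dependent initiation is low, was at 5193, 5244 and 4237 *in vitro* and at 14731, 6284 and 8788 *in vivo*, below in every library, with a difference of -1.02 and a 95% confidence interval from -2.77 to 0.73. *Ubb*, a ubiquitin gene, was at 3955, 4218 and 3874 *in vitro* and at 5195, 6304 and 5404 *in vivo*, and *Eef1a1*, the elongation factor, at 2321, 2815 and 2613 against 3146, 3165 and 3112. These 3 genes did not overlap, with differences of -0.28 to -1.02 on the log2 scale. The deubiquitinase gene *Usp9x*, the ubiquitin ligase gene *Huwe1*, *Ankrd17*, *Hnrnpa1*, *Gnas* and *Ahnak* overlapped between the groups, with differences between -1.01 and 0.53. The scaling moves such small differences: the median of all genes was 0.17 with DESeq2's size factors and 0.72 with library size alone.

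Ribosomal protein genes had similar summed levels in both groups, whereas single genes spread more *in vivo*. Of the 83 genes, 82, 80 and 80 were over the floor *in vitro* and 68, 81 and 78 *in vivo*. For the 66 over the floor in all 6 libraries, the highest library was 1.75 times the lowest *in vitro* and 4.65 times *in vivo*, as medians. The summed level of the 83 cytosolic ribosomal protein genes was 32450, 40152 and 42053 *in vitro* and 40505, 40377 and 30331 *in vivo*. Their median difference was 0.39 (0.39 with the floor), beside 0.44 (0.23) for all genes. Of the 83, 6 were above in every *in vitro* library (*Rpl6*, *Rpl15*, *Rpl22*, *Rpl28*, *Rps16* and *Rps27a*) and 3 below (*Rpl37* and *Rpl39* among them), or 7.23% and 3.61%, beside 8.74% and 1.25% of all genes. *Rpl28* was at 319, 303 and 243 *in vitro* and at 197, 223 and 197 *in vivo*. No member reached an unadjusted p under 0.05. Many ribosomal protein genes have processed copies in the genome, so their counts are uncertain. Members named below because their libraries did not overlap were chosen after their values were seen.

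Genes of TGF-β signalling, through which oocyte and granulosa cells exchange growth signals, varied widely within each group. Of 13 tested ligands, *Bmp6* was above in every *in vitro* library (7.69%, beside 8.74% of all genes), at 47.7, 106 and 77.9 against 0, 6.58 and 0.380. *Inha*, the inhibin subunit of granulosa cells, was at 218, 88.1 and 568 *in vitro* and at 0, 139 and 49.9 *in vivo*, and *Tgfb3* at 33.4, 70.9 and 27.1 against 0, 258 and 50.4. Of 13 tested receptors, 3 were above in every *in vitro* library (23.1%, beside 8.74% of all genes). *Bmpr2*, the type II receptor that binds BMP15 and GDF9, was at 562, 1073 and 482 *in vitro* and at 0.292, 232 and 42.0 *in vivo*, a difference of 2.95 ± 1.72 (adjusted p = 0.566). The other two were *Tgfbr3*, at 13.9, 27.1 and 11.54 against 0, 4.42 and 10.3, and *Acvrl1*, which stayed under 3.45. *Acvr2b* lay the other way, at 4.62, 43.3 and 49.9 *in vitro* and 1130, 42.8 and 206 *in vivo*, with overlap. The median differences were 2.21 (1.63 with the floor) for ligands and 1.84 (1.84) for receptors.

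The signal transducers of the pathway, its inhibitors and its targets held no member whose groups did not overlap. *Smad4*, the common partner of the receptor-activated SMADs, was at 606, 1591 and 472 *in vitro* and at 16.3, 1466 and 1645 *in vivo*. *Smad2* was at 128, 2053 and 354 *in vitro* and at 0.0584, 374 and 1407 *in vivo*. The ubiquitin ligase genes *Smurf1* and *Smurf2*, which limit the pathway, were at 67.3, 0.604 and 74.1 against 1339, 0.843 and 192, and at 235, 118 and 135 against 0.0584, 273 and 342. The targets *Id2* and *Id3* were at 28.9, 0 and 32.4 against 0, 30.0 and 0, and at 67.8, 18.1 and 30.3 against 0.175, 16.0 and 72.9. The median differences were -0.23 (-0.23) for 5 transducers, -0.33 (-0.33) for 11 inhibitors and 1.03 (0.38) for 5 targets. At an unadjusted p under 0.05 the ligands and transducers had no member, and receptors, inhibitors and targets together had 4 higher (*Acvr1*, *Smad6*, *Fstl3* and *Id1*) and 3 lower (*Eng*, *Chrd* and *Ccn2*) of 29 tested, beside 6.94% and 2.72% of all genes, each with at least 1 *in vitro* or *in vivo* library at 0.

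PI3K genes overlapped between the groups with few exceptions. *Foxo3*, the transcription factor that keeps oocytes dormant, was at 646, 811 and 573 *in vitro* and at 923, 1257 and 480 *in vivo*, a difference of -0.39 with a 95% confidence interval from -3.08 to 2.30. *Igf1r* was at 329, 452 and 730 *in vitro* and at 284, 441 and 208 *in vivo*. Of 24 activators, *Rheb*, the GTPase that switches on mTORC1, was below in every *in vitro* library, at 60.9, 98.6 and 42.7 against 257, 160 and 237. *Mlst8*, a subunit of the mTOR complexes, was above, at 5.69, 0.302 and 2.23 against 0, 0.0401 and 0. The shares below and above were 4.17% each, beside 1.25% and 8.74% of all genes. None of the 12 inhibitors and dormancy factors separated the groups, and no member of either list reached an unadjusted p under 0.05. The median differences were 0.17 (0.17) for activators and 0.34 (0.34) for inhibitors, beside 0.44 (0.23) of all genes.

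In the MAPK cascade, which carries growth factor signals from receptors to the nucleus, 6 of 26 members were above in every *in vitro* library (23.1%, beside 8.74% of all genes) and none below. They included the adaptor *Grb2*, the exchange factors *Sos1* and *Sos2*, the GTPase *Hras* and the kinase *Braf*. *Sos1* was at 127, 635 and 187 *in vitro* and at 0.117, 44.9 and 0.109 *in vivo*, a difference of 4.39 with a 95% confidence interval from 0.47 to 8.32 (adjusted p = 0.446). *Braf* was at 101, 208 and 104 *in vitro* and at 0.0584, 65.5 and 4.84 *in vivo*. When *in vivo* library 1 was left out, 6 were above and 2 below (23.1% and 7.69%, beside 11.2% and 5.48% of all genes), and without *in vivo* library 2, 9 were above and 3 below (34.6% and 11.54%, beside 22.7% and 4.16%). The median difference of the 26 was 0.25 (0.25 with the floor), beside 0.44 (0.23) of all genes.

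Among cell cycle genes, only members above in every *in vitro* library separated the groups in the 3 lists examined. Of all genes 8.74% were above. Of 17 inhibitors, 4 were above (23.5%): the CDK inhibitor genes *Cdkn2a* and *Cdkn2c*, the kinase gene *Wee1*, and *Gadd45a*. *Wee1*, which holds CDK1 inactive, was at 11.97, 27.3 and 24.7 *in vitro* and at 0, 1.49 and 0 *in vivo*. *Cdkn1b*, known for restraining the growth of dormant oocytes, was at 31.2, 79.4 and 20.5 *in vitro* and at 21.5, 63.5 and 16.2 *in vivo*, with overlap. Of 19 cyclins, kinases and phosphatases, *Cdk4*, *Cdk10* and *Mnat1* were above (15.8%), with *Cdk4* at 90.3, 430 and 127 against 0.0584, 77.0 and 24.9. *Cdk2* was at 304, 0 and 43.6 *in vitro* and at 0, 311 and 1174 *in vivo*. Of 17 spindle kinase and checkpoint genes, *Bub1* and *Cdc20* were above (11.8%), with *Cdc20*, the activator of the anaphase-promoting complex, at 19.1, 20.3 and 18.2 against 0, 7.99 and 0. In that order, the lists had medians of 1.503 (1.08), 0.62 (0.14) and 1.02 (1.02).

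In the Wnt pathway, which acts between granulosa and other somatic cells, the signal transducers had more members below than above. Of 12 transducers, 2 were below in every *in vitro* library (16.7%, beside 1.25% of all genes) and 1 above. *Ctnnb1*, β-catenin, was at 293, 92.4 and 379 *in vitro* and at 2731, 530 and 614 *in vivo*, a difference of -2.34 ± 1.54 (adjusted p = 0.623). *Tcf7*, its DNA-binding partner, was at 49.9, 1.17 and 24.6 *in vitro* and at 2466, 59.1 and 123 *in vivo*, a difference of -5.13 ± 2.28 (adjusted p = 0.444). *Wls*, which carries Wnt proteins out of the cell, was above, at 22.6, 169 and 41.3 against 0.0584, 4.66 and 0.217. Leaving out *in vivo* library 1, 4 transducers were below (33.3%) and 1 above (8.33%), beside 5.48% and 11.2% of all genes. Leaving out *in vivo* library 2, 4 were below (33.3%) and 3 above (25%), beside 4.16% and 22.7%. *Dvl3* was at 101, 332 and 102 *in vitro* and at 1445, 79.0 and 720 *in vivo*.

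Of the other Wnt lists, 1 of 11 ligands (*Wnt4*), 3 of 17 receptors (*Fzd4*, *Lgr6* and *Ror2*) and 2 of 15 inhibitors (*Sfrp1* and *Znrf3*) were above in every *in vitro* library, beside 8.74% of all genes, and none below. *Wnt4*, a ligand of the developing ovary, was at 32.7, 0.129 and 5.83 *in vitro* and at 0 *in vivo*. *Znrf3*, a ligase that removes Wnt receptors, was at 17.1, 94.7 and 14.4 *in vitro* and at 0, 0.161 and 2.34 *in vivo*. *Rspo2*, the R-spondin of the oocyte, was at 192, 207 and 45.5 *in vitro* and at 151, 128 and 1330 *in vivo*. The coreceptor genes *Lrp5* and *Lrp6* were at 145, 75.5 and 213 against 69.9, 143 and 416, and at 625, 209 and 297 against 3136, 43.5 and 541. *Wnt16*, *Rspo3*, *Fzd10*, *Dkk2* and *Sfrp2*, all lower at an unadjusted p under 0.05, were found in *in vivo* library 2, the library with the most collagen, and were at 0 or 1 count elsewhere. Higher at that p were *Wnt4*, *Lgr6* and *Rnf43*. *Apc* was at 449, 158 and 226 against 50.2, 67.3 and 649, and *Csnk1a1* at 522, 2024 and 715 against 6198, 1464 and 238. As medians, the differences were -1.79 (-1.79) for ligands, 0.85 (0.66) for receptors, -0.62 (-1.25) for transducers and 2.17 (2.17) for inhibitors.

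Genes of sterol and fatty acid synthesis had the largest share above among the pathway lists of at least 10 tested members. Of 27 members, 10 were above in every *in vitro* library (37.0%, beside 8.74% of all genes) and none below. With *in vivo* library 1 left out, 15 were above and none below, and without *in vivo* library 2, 15 were above and 1 below, beside 11.2% and 22.7% of all genes above and 5.48% and 4.16% below. *Acaca*, which makes malonyl-CoA for fatty acid synthesis, was at 194, 234 and 237 *in vitro* and at 1.93, 116 and 107 *in vivo*. *Fasn*, the fatty acid synthase, was at 92.5, 601 and 118 *in vitro* and at 0.175, 84.4 and 51.5 *in vivo*, and *Scd2*, a desaturase, at 154, 333 and 342 against 1.23, 92.8 and 1.96. *Insig1*, a sterol-regulated brake on the pathway, was at 69.5, 113 and 43.9 against 0.876, 37.7 and 15.2.

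The other members above were lower in level. *Sqle*, the squalene epoxidase, was at 0.976, 5.70 and 2.67 *in vitro* and at 0.584, 0.482 and 0.217 *in vivo*. *Mvk*, *Idi1*, *Msmo1*, *Sc5d* and *Elovl6* had at most 7 counts in any *in vivo* library. *Hmgcs1*, which makes HMG-CoA for the mevalonate route, overlapped, at 164, 147 and 97.4 against 1028, 78.5 and 161. *Msmo1* alone reached an unadjusted p under 0.05 (0.016, adjusted p = 0.44), and the median difference of the list was 1.86 (1.85 with the floor), beside 0.44 (0.23) of all genes. Surface epithelium and granulosa markers were also higher *in vitro* in sum, and their part in this list was not tested.

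Of 16 glycolysis genes, *Hk2* and *Pfkl* were above (12.5%) and *Pkm* below (6.25%), beside 8.74% and 1.25% of all genes, with *Pkm*, pyruvate kinase, at 521, 301 and 546 against 3189, 774 and 555. *Hk2*, a hexokinase that also belongs to the hypoxia list, was at 6.83, 248 and 57.2 *in vitro* and at 0 in all *in vivo* libraries, with *in vitro* library 2 the highest (adjusted p = 0.44). *Gapdh* was at 340, 399 and 267 *in vitro* and at 432, 145 and 68.4 *in vivo*. Of 17 hypoxia genes, *Hk2*, *Car9* and *Kdm3a* were above (17.6%), with *Kdm3a*, a histone demethylase, at 106, 42.2 and 37.6 against 0, 24.4 and 21.9. The hypoxia-responsive genes *Bnip3l* and *Egln1* overlapped, at 340, 105 and 233 against 298, 286 and 459, and at 137, 108 and 89.1 against 0, 353 and 200. The medians were 0.55 (0.55) for glycolysis and 0.71 (0.72) for hypoxia.

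Of nuclear-encoded mitochondrial genes, 10 of 78 oxidative phosphorylation subunits (12.8%), 8 of 77 mitochondrial ribosomal proteins (10.4%) and 4 of 26 import genes (15.4%) were above in every *in vitro* library, beside 8.74% of all genes, with none below. *Atp5b*, the catalytic subunit of ATP synthase, was at 605, 677 and 481 *in vitro* and at 181, 467 and 145 *in vivo*, and *Uqcrc2*, of complex III, at 66.5, 33.7 and 29.1 against 4.61, 24.6 and 5.16. *Atp5g1* lay the other way with overlap, at 228, 1293 and 203 against 5620, 278 and 1088. *Mrpl43* was at 102, 177 and 29.3 *in vitro* and at 0.0584, 0 and 0.489 *in vivo*, and *Mrps25* at 162, 190 and 101 against 0, 97.1 and 3.15. *Timm22*, a channel of the inner mitochondrial membrane, was at 14.6, 31.1 and 20.97 *in vitro* and at 0, 0 and 0.163 *in vivo*, whereas *Timm17a* and *Timm23* overlapped. Of the 78 subunits, 71, 65 and 78 were over the floor *in vitro* and 31, 70 and 44 *in vivo*, with overlap, as for genes in general. Their medians were 0.40 (0.32), 0.75 (0.48) and 1.07 (1.07) in that order. The 9 tested genes of the mitochondrial genome overlapped, with *mt-Co1* at 10.1, 4.57 and 30.3 against 3.74, 5.46 and 2.28, *mt-Nd5* at 9.40, 6.82 and 19.8 against 2.34, 6.94 and 0.924, and a median of 1.18 (1.18).

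Antioxidant genes went both ways. Of 36 tested, 3 were above (*Txn1*, *Hmox1* and *Akr1b8*) and 2 below (*Sod1* and *Gpx4*), or 8.33% and 5.56%. Of all genes 8.74% were above and 1.25% below. *Sod1*, the cytosolic superoxide dismutase, was at 28.8, 24.8 and 31.2 *in vitro* and at 44.3, 64.5 and 59.8 *in vivo*, a difference of -0.99 ± 2.71 on the log2 scale. *Gpx4*, which detoxifies lipid peroxides, was at 41.1, 5.31 and 26.1 *in vitro* and at 200, 60.9 and 76.8 *in vivo*, and *Hmox1*, haem oxygenase, at 0.390, 0.388 and 13.0 against 0, 0.0401 and 0. *Prdx1* and *Gstm1* overlapped, at 373, 269 and 207 against 1.17, 98.4 and 523, and at 251, 423 and 599 against 12.4, 269 and 53.7. The median was 0.24 (0.06). Of 12 NADPH oxidase genes, 4 were tested and none separated the groups. *Cyba* was at 31.3 in *in vivo* library 2 and under 0.35 elsewhere, and *Duox2* at the floor in all 6. Their median was 0.45 (-2.10).

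Histone genes were above in every *in vitro* library for 9 of 75 members and below for 1 (1.33%), near the 8.74% and 1.25% of all genes. Besides *H2afj*, *H2afx* was at 195, 994 and 330 *in vitro* and at 0.350, 77.6 and 0.598 *in vivo*, and *H2afz*, a variant of active promoters, at 163, 280 and 133 against 97.2, 96.5 and 36.0. *Hist1h2bh* was at 423, 584 and 829 *in vitro* and at 0.642, 314 and 0.0543 *in vivo*. *Hist2h3b* was below, at 16.7, 484 and 420 against 3006, 881 and 1212. *Hist1h2be* and *Hist2h2bb* overlapped, at 9.46, 498 and 914 against 7506, 1160 and 0.217, and at 945, 766 and 620 against 1747, 487 and 2890. The median was 0.72 (0.68), and 7 members were higher at an unadjusted p under 0.05 and none lower, beside 6.94% and 2.72% of all genes. Reads of histone gene copies cannot be told apart with certainty.

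Stress, protein turnover and immediate early genes had few members whose groups did not overlap. Of 29 heat shock and endoplasmic reticulum stress genes, *Atf4*, *Eif2ak3* and *Herpud1* were above (10.3%) and none below. Of all genes 8.74% were above and 1.25% below. *Atf4*, the transcription factor of the integrated stress response, was at 66.4, 364 and 152 *in vitro* and at 2.63, 22.7 and 33.1 *in vivo*, a difference of 3.32 ± 2.86 (adjusted p = 0.793). *Hsp90ab1* was at 1675, 2181 and 1909 *in vitro* and at 2010, 1925 and 2453 *in vivo*, and *Hspa8* at 2071, 1626 and 1575 against 7865, 1257 and 2637. Of 38 proteasome subunits, *Psmd7* was above (2.63%) and *Psmc4* below (2.63%), the latter at 95.1, 57.6 and 132 against 439, 158 and 160. *Psmd1* and *Psmd2* overlapped, at 278, 243 and 161 against 432, 233 and 428, and at 380, 527 and 503.6 against 3091, 518 and 125. Of 24 immediate early genes, *Egr1* was above (4.17%), at 91.6, 22.0 and 37.5 against 0, 19.6 and 9.24, and *Jund* and *Srf* overlapped. Their medians were 0.33 (0.32), 0.27 (0.27) and -0.27 (-0.53).

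Of the cell death genes, *Bcl2l2* among 8 inhibitors (12.5%) and *Bad* and *Casp6* among 17 activators (11.8%) were above in every *in vitro* library. None was below. These shares were near the 8.74% of all genes. *Bcl2l2* was at 19.5, 51.5 and 1.21 *in vitro* and at 0, 0.0401 and 0 *in vivo*. *Bad*, its antagonist, was at 3.87, 0.0863 and 24.4 *in vitro* and at 0 *in vivo*. *Trp63*, the guardian of the oocyte genome, was at 90.7, 94.5 and 27.1 *in vitro* and at 123, 12.9 and 59.1 *in vivo*, and *Mcl1*, which oocytes need for survival, at 54.3, 235 and 82.8 against 1198, 33.4 and 1.03. *Bcl2l1* and *Casp2* overlapped, at 0.325, 144 and 36.3 against 0, 22.4 and 266, and at 192, 0.216 and 99.1 against 0.701, 56.4 and 0.217. The medians were -0.28 (-0.28) and 1.32 (1.21).

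**Figure D5:**
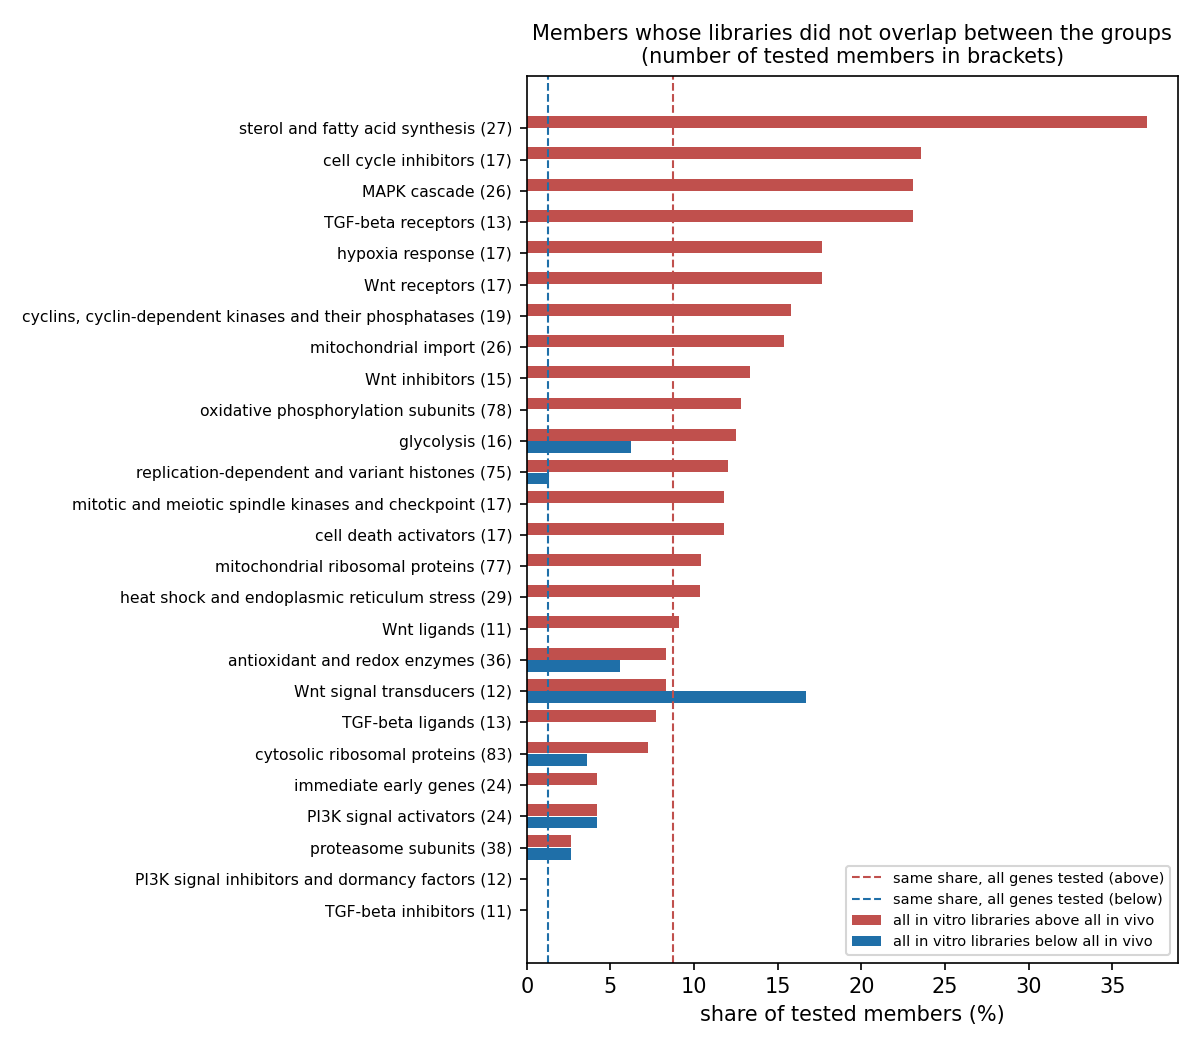
Share of tested members (horizontal axis, in percent) of each pathway list with at least 10 tested members, with all *in vitro* libraries above (red) or below (blue) all *in vivo* libraries, with the same shares over all genes as dashed lines at 8.74% and 1.25%. Sterol and fatty acid synthesis, at 37.0%, has the longest red bar and the Wnt signal transducers, at 16.7%, the longest blue bar.

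The genes that the study lists for this comparison were chosen by it on these libraries, so their counts here are no independent evidence of direction. Of 25 such genes, 24 were tested, 16 were higher and 3 lower at an unadjusted p under 0.05 and none passed the adjustment. More than 3 counts in all 3 libraries of a group were found for 5 of them, all *in vitro*. *Mnat1*, a subunit of the CDK-activating kinase, had 301, 18 and 461 counts, *Lgr6*, an R-spondin receptor, had 7, 1746 and 187, and *Lemd2*, of the inner nuclear membrane, had 57, 118 and 37. *Mrps11* had 15, 105 and 6 counts and *Tomm40l*, of the mitochondrial import pore, had 1608, 6 and 441. All 5 were at 0 in the 3 *in vivo* libraries, and their adjusted p-values were 0.44. The other 20 were at the floor in at least 1 library of each group, and 21 of the 24 tested were at the floor in all *in vivo* libraries and above it in an *in vitro* library.

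The difference between *in vitro* and *in vivo* was compared with the same difference in oocytes of primordial follicles, the dormant stage before, by an interaction term over the 12 LCM libraries. It passed for 16 of 15317 genes (0.104%), 11 with the larger value in primary follicle oocytes and 5 with the smaller. *Max* was among them (interaction 12.67 ± 3.05 on the log2 scale, adjusted p = 0.0392): it had 0, 14 and 20660 counts in the *in vitro* and 13113, 8823 and 18579 in the *in vivo* primordial libraries, so only the primary *in vivo* libraries were at or near the floor throughout. *H2afj* had 595, 3 and 11928 counts in the *in vitro* and 3236, 65389 and 1925 in the *in vivo* primordial libraries (13.75 ± 3.28, adjusted p = 0.0380). *Tubb3*, a β-tubulin, had 10470, 6 and 23681 counts *in vitro* and 44154, 1 and 31700 *in vivo* in primary follicle oocytes, and 0, 34275 and 2 against 0, 1 and 8 in primordial ones. *D6Ertd527e* was over the floor in all 6 primary libraries, between 1594 and 22102 counts. In primordial ones it had 2, 52622 and 12878 counts *in vitro* and 1, 1 and 4 *in vivo*.

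Several other calls rested on single libraries. *Pcdha6* was found in 1 primary library (291 counts, *in vitro* library 3) and in 1 primordial library (29038 counts, *in vivo* library 3), and *Crem* had 363 counts in *in vitro* library 3 and 34600 in the same primordial library. *Hist1h2ag* had 0, 0 and 473 counts in the *in vitro* and 145, 0 and 53008 in the *in vivo* primordial libraries. Without *in vitro* library 3 of the primary stage or *in vivo* library 3 of the primary stage no gene passed the interaction, and without *in vitro* library 1 or 2 a single gene did.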

How the data were processed

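RNA of laser-captured oocytes was sequenced after amplification and probe capture. The authors trimmed reads with Trim Galore 0.4.1, aligned them with TopHat2 to mm10 and counted reads per gene with featureCounts, and the deposited counts were used as raw counts. Whether the counting used strand is not given in the sources used here. The deposited TPM values, which the authors also made, cover 28252 genes and served as an alternative.

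Gene symbols came from GENCODE release 21 of the mouse (53620 of 53715 identifiers matched). The 12 laser-captured libraries of primordial and primary follicle oocytes were fitted together in edgeR 4.0.16 (R 4.3.3), with TMM scaling, robust quasi-likelihood tests, 1 mean per group and genes of at least 10 counts in total. Metaphase oocyte libraries were made another way and were not used. Calls required a difference of 2-fold or more and p under 0.05 after Benjamini-Hochberg adjustment over all tested genes. The common biological coefficient of variation was 2.02. Each SE was computed from the log2 difference and the F statistic of its test. With 1 group at the floor of 3 counts in each library, folds were computed against that floor and given as at least that value. The code was tested on simulated data.

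Total counts were 18437770 to 25495043 per primary follicle library, where 3 counts correspond to 0.118 to 0.163 CPM. The members and gene lists were chosen with earlier results of these data known. Genes were named by 5 rules, namely up to 10 protein-coding genes per direction with the smallest p, no overlap and a mean of at least 1 CPM, every oocyte marker and the 2 highest members of each other list, the 10 best measured genes, genes in the study's table with more than 3 counts in all 3 libraries of a group, and the 5 interaction genes with the smallest p. Other genes were named after their values were seen, and some members of the lists are not reported here. Alternatives were DESeq2 1.42.0, limma 3.58.1 (voom, and TPM on the log2 scale with 1 or 0.1 added), other scalings and filters, other sets of libraries, a replicate block, and each library left out.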

Additional observations from a re-analysis of the deposited data

Results flagged for a closer look

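The difference between *in vitro* and *in vivo* was not the same in oocytes of primary and primordial follicles for 16 genes, by an interaction term in edgeR at an adjusted p under 0.05. The values below are primary minus primordial, on the log2 scale. The interaction was 25.64 for *Pcdha6* (adjusted p = 0.0201), which had a count above 0 in 1 primary and 1 primordial library. It was 20.63 for *Crem* (adjusted p = 0.0229), with 363 counts in 1 primary library and 34600 in 1 primordial library. For *Mrpl43* it was 24.32 (adjusted p = 0.0380), where the primary libraries had 3130, 4110 and 945 counts *in vitro* and 1, 0 and 9 *in vivo*. The primordial libraries had 0, 0 and 0 counts of *Mrpl43* *in vitro* and 3418, 1 and 8996 *in vivo*, a difference of -15.21. For *Hist1h2ag* it was 15.71 (adjusted p = 0.0229), for *H2afj* 13.75 (adjusted p = 0.0380) and for *Max* 12.67 (adjusted p = 0.0392), and these 3 genes were higher *in vitro* in the primary stage. For *Tubb3* it was -13.42 and for *D6Ertd527e* -13.29 (adjusted p = 0.0229 for both), and the difference in the primordial stage was 11.42 and 13.06.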

How the results depend on the processing

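No gene was called by edgeR, and the count stayed at 0 with TMMwsp, library size alone, all 4 other filters on low counts, all 18 libraries and TPM values. It was 1 with DESeq2's size factors, 4 without robust estimation, 5 with only the 6 primary follicle libraries, and 0 to 1 with 1 library left out. DESeq2 called 248 genes, and 977 without its filters, and limma-voom called 316, so the number of calls depended on the tool. The genes higher at an unadjusted p under 0.05, 1063 in the report, were 2249 with voom, 529 with filterByExpr, 652 and 242 with a mean of at least 1 and 10 CPM, 1726 with all 18 libraries, 672 with log2(TPM + 1), and 359 to 1277 with 1 library left out. The genes lower, 416 in the report, were 720 with DESeq2 without filters, 189 with voom, 108 with filterByExpr, 256 and 105 with those means, 53 and 36 with 1 and 0.1 added to TPM, and 121 to 404 with 1 library left out. The higher share of these genes was 71.9%, against 92.2% with voom, 63.0% with size factors, and 52.9% and 47.1% without *in vivo* library 1 and 3. Genes above without overlap, 1339 in the report, were 676 with a mean of at least 10 CPM and 1716 to 3478 with 1 library left out, and those below, 191 in the report, were 125 with library size alone and 313 to 839 with 1 library left out, where fewer libraries have to separate. The interaction called 553 genes in DESeq2 and 0 to 20 with 1 library left out. It called 1 gene with no filter and none with the 3 stricter filters or all 18 libraries. Of single genes, *Col1a1* was -3.11 to 0.80 with 1 library left out (0.80 without *in vivo* library 2), and *Crem* -2.94 to 9.48 (-2.94 without *in vitro* library 3), on the log2 scale. Of 480 list medians under other settings, 383 moved by less than the spread between libraries, but 33 of the 40 medians moved by more in at least 1 setting. The filter of at least 10 CPM, the TPM fits at unadjusted p and the non-overlap counts with libraries left out were added after seeing the data. Causes of these changes were not tested.

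Both groups carry the same replicate numbers, and no label says whether same-numbered libraries share a source. Their deviations from the group means had correlations of -0.023, -0.022 and -0.0017. With so wide a spread between libraries, these values cannot show whether the libraries were paired. With the replicate block, 0 genes were called, 566 were higher and 60 lower at an unadjusted p under 0.05, the interaction called 0, and *Crem* was -1.41. The median difference of all genes was then 1.26 on the log2 scale, against 0.44 in the report. No *in vitro* library correlated best with the *in vivo* library of its own number.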
